A study of Arabidopsis thaliana with 27 samples.

Results

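The comparison described here is that of Arabidopsis thaliana Col-0 seedlings kept on 125 mM NaCl with seedlings kept on the same medium without added salt. It rests on the 3 arrays labelled 125mM NaCl and the 3 arrays labelled ATS media, 6 of the 27 arrays of the series, and covers all genes. ATS is a defined mineral medium for Arabidopsis. In both groups the plants germinated and grew on their medium until 2 weeks of age, and RNA was taken from whole seedlings, shoot and root together. No gene was altered in any group, and by their labels the groups differ in the salt of the medium. The study set 4 NaCl doses, 50, 75, 100 and 125 mM, beside sorbitol at 4 doses from 100 to 250 mM (100, then 150, then 200 and last 250), which give the same osmotic strength without sodium or chloride, with 3 arrays in each group. The NaCl 100 mM, sorbitol 250 mM and sorbitol 100 mM groups are used below for comparison. Since a whole seedling was measured, fewer cells of a type and less RNA per cell cannot be told apart. The study calls the replicates biological repeats, and the sources used here do not say which plates or harvests they came from, so the p-values measure the spread between these arrays.

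Salt in the medium acts on a plant in more than one way. It lowers the water potential outside the root, which raises the hormone abscisic acid and its target genes, and it loads the tissue with sodium, which competes with potassium and is kept out of the cytosol by export from the cell and by transport into the vacuole. Seedlings that germinate in salt also grow slowly, and growth is regulated by auxin, gibberellin and jasmonate.

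Each array was a single-colour array with a spot for each probe, and its values are given below as log2 signal, so that a difference of 1 is a doubling. Values were normalized to one common distribution. The median signal before normalization was 546 to 588 on the control arrays and 827 to 936 on the NaCl 125 mM arrays, and 70.1 to 75.9% and 76.6 to 78.7% of spots were well above background. Of 25383 genes on the array, 21509 exceeded background clearly in all 3 replicates of a group, whichever group it was. These were tested with limma, which fits a linear model to each gene and steadies its variance with that of the others. A gene is called when its adjusted p is under 0.01. The median gene had an SD between replicate arrays of 0.04 in the control and 0.05 on NaCl 125 mM (log2). The control arrays were on 2 slides and the NaCl 125 mM arrays on 2 others, and no slide links them, so that slide and treatment cannot be told apart in this comparison. The arrays of sorbitol 100 mM lay on the same slides as those of NaCl 125 mM, and values against them are given at the end.

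Between the control and NaCl 125 mM arrays most genes differed by small amounts and a smaller number by large ones. Of the 21509 genes, 15126 (70.3%) were called, 6971 higher (32.4%) and 8155 lower (37.9%). Counts called in the gene lists below are to be read beside these shares of all genes. The median called gene differed by 0.45 on the log2 scale. A difference of at least 2-fold was called in 1599 genes that rose and 1408 that fell, of at least 4-fold in 548 and 313, and of at least 16-fold in 91 and 39. The lower calls outnumbered the higher ones in total, and the higher calls outnumbered the lower ones at every one of these fold sizes. These sizes are fitted differences, and for a gene below background in 1 group the measured bound can be smaller. OLEO2, for example, has a fitted rise of 6.10 on the log2 scale and a bound of at least 8.846-fold. On all 3 NaCl 125 mM arrays but on no control array, 440 genes stood well above background, and 344 of these 440 were called higher. The reverse was found for 44 genes, all of which were called lower. More rises than falls thus have a fitted size that rests on a group at background. Detection was judged before normalization, when the control arrays were dimmer, and how much this adds to the 440 was not tested. SAND, a gene often used as a constant reference, measured 12.33, 12.36 and 12.38 in the control and 12.37, 12.42 and 12.44 on NaCl 125 mM (difference 0.05, SE 0.05, limma adjusted p = 0.3107).

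**Figure D1:**
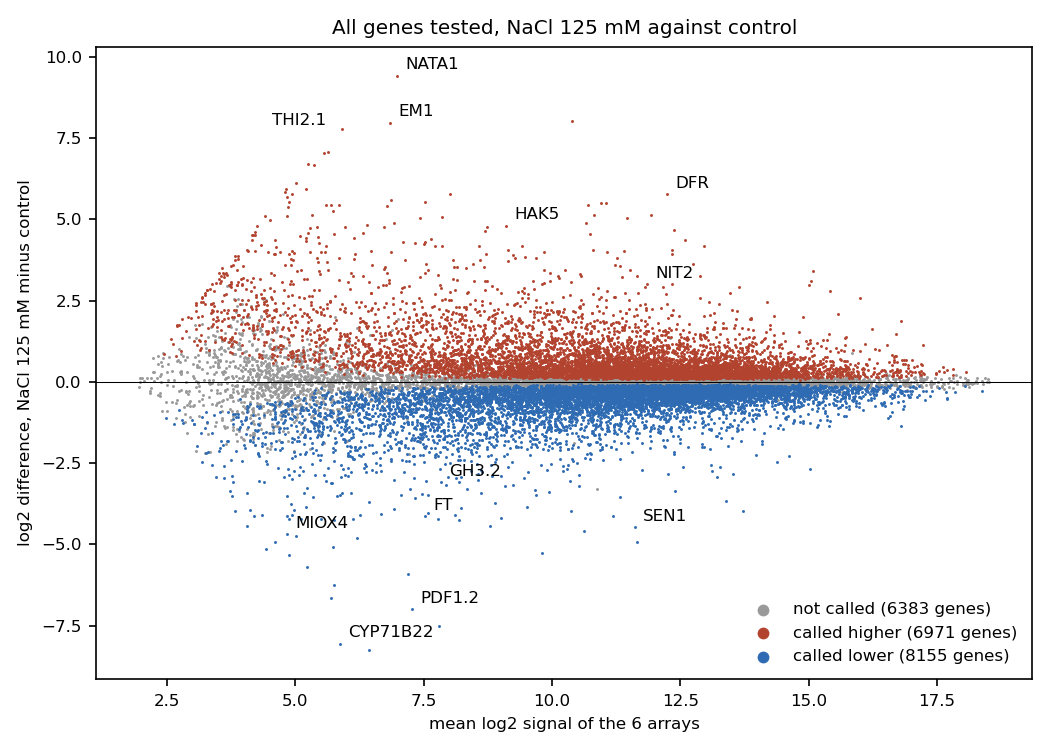
Each point is a gene, plotted by its mean log2 signal over the 6 arrays (x axis) and its log2 difference between NaCl 125 mM and control (y axis). Red points were called higher (6971), blue points lower (8155) and grey points not called. The widest differences lie in the left part of the plot, where one of the groups is near background.

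The 12 largest fitted rises included the seed genes EM1 and OLEO2 and the jasmonate gene NATA1, and several had no name in the reference table. The top gene was NATA1, which encodes an acetyltransferase that makes N-acetylornithine and is known to respond to jasmonate. Its log2 signal was 2.89, 1.93 and 1.99 in the control and 11.65, 11.69 and 11.71 on NaCl 125 mM, a fitted difference of 9.42 (SE 0.15, limma adjusted p = 1.102e-21). No control array was well above background for it, so the measured rise is at least 109-fold. AT1G80130 was above background in both groups, at 6.37, 6.35 and 6.46 against 14.33, 14.38 and 14.49, and rose by 8.01 (SE 0.07, limma adjusted p = 4.203e-26). The embryo protein gene EM1 measured 2.88, 3.05 and 2.66 against 10.89, 10.82 and 10.80, a rise of at least 60.5-fold. THI2.1, which encodes a thionin with antimicrobial activity, measured 2.00, 2.06 and 2.03 against 9.82, 9.79 and 9.81, a rise of at least 29.65-fold. In all 4 genes the NaCl 125 mM arrays lay close together and far above every control array, and in 3 of them the control is known only to be at background.

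Other genes of the 12 largest rises followed the same pattern of a control at background. ECP63, a late embryogenesis abundant protein of embryonic cells, went from 2.06, 2.00 and 2.23 to 9.18, 9.14 and 9.17 (at least 19.01-fold). The nudix hydrolase gene NUDT24 went from 2.01, 2.08 and 2.04 to 9.11, 9.07 and 9.08 (at least 18.05-fold). OLEO2, an oleosin that coats the oil bodies of seeds, went from 1.93, 1.97 and 1.97 to 8.04, 8.05 and 8.09 (at least 8.846-fold). The other 5 were AT5G44310 (at least 12.77-fold), AT2G28490 (13.77), AT2G18590 (9.659), AT1G65090 (7.292) and AT4G01985 (6.996), all with no control array above background. AT4G01985 measured 7.84, 7.85 and 7.74 on sorbitol 100 mM, whose arrays shared slides with those of NaCl 125 mM. Within sorbitol 150 mM it measured 7.45 on 1 slide and 6.33 and 6.44 on another. All 12 fitted rises had a limma adjusted p of 5.136e-07 or less, and the size of those at background depended on how background was treated: with normexp background correction, a model that subtracts an estimated background, the rise of NATA1 was 4.46, that of EM1 3.36 and that of AT1G65090 1.3, while AT1G80130 rose by 6.21.

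AT3G05950, with no name in the reference table, had the largest fitted fall. It measured 10.52, 10.59 and 10.56 in the control and 2.34, 2.43 and 2.12 on NaCl 125 mM, a fall of at least 107.9-fold (fitted difference -8.26, SE 0.22, limma adjusted p = 4.089e-18). The cytochrome P450 gene CYP71B22 measured 9.93, 9.85 and 9.91 against 1.85, 1.87 and 1.81, a fall of at least 68.2-fold. Neither gene was above background on any NaCl 125 mM array. PDF1.2, which encodes a plant defensin, measured 10.80, 10.78 and 10.70 against 2.39, 6.16 and 2.77, a difference of -6.99 (SE 0.57, limma adjusted p = 4.732e-10). The second NaCl 125 mM array was the only one above background for PDF1.2 and stood well apart from the other 2. Its close homologue PDF1.2b measured 8.43, 8.13 and 8.25 against 3.97, 2.74 and 2.85, a fall of at least 20.19-fold.

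AACT1, an acyltransferase gene, fell by 7.51 on the log2 scale, from 11.55, 11.56 and 11.52 to 3.84, 4.54 and 3.73. GLIP1, a secreted lipase with a role in defence against fungi, fell by 5.91, from 10.12, 10.15 and 10.15 to 4.09, 4.51 and 4.09. Both sizes depended on the processing, with differences as small as -4.12 for AACT1 and -2.81 for GLIP1. MEE3, a small MYB-related gene of the RADIALIS-like family, was the one of the 12 that stayed well above background on all 6 arrays, at 12.25, 12.54 and 12.58 against 6.88, 7.42 and 7.21 (difference -5.28, SE 0.13). The rest were CYP82C2, a P450 of indolic defence compounds, with a fall of at least 37.53-fold, AT2G36255 (33.61), AT3G22250 (19.31), AT1G28040 (13.29) and the terpene synthase gene TPS03 (9.191). The control and NaCl 125 mM arrays did not overlap in any of these 24 genes, as the rule for choosing them required.

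**Figure D2:**
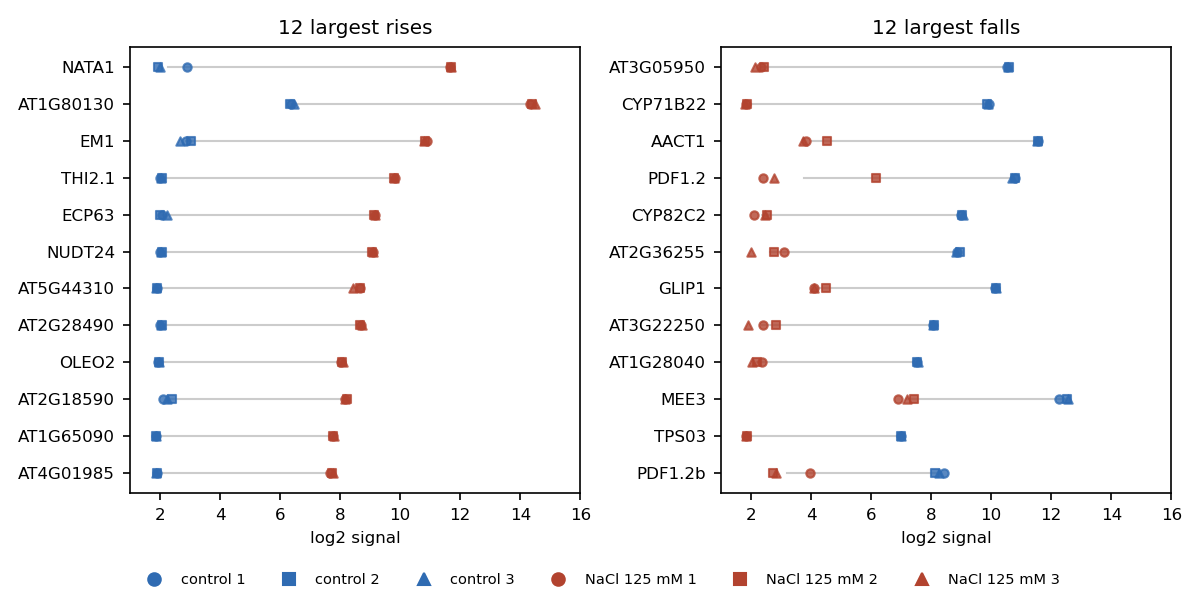
Log2 signal on each array for the 12 largest rises (left) and the 12 largest falls (right). Blue markers are the control arrays and red markers the NaCl 125 mM arrays, with the shape giving the replicate and a grey line joining the group means. Control values of most rising genes and NaCl values of most falling genes sit near 2, below the level of spots well above background, and the second NaCl array of PDF1.2 stands at 6.16.

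Genes of seed storage and embryo are normally silent once a seedling is established, and more of them were measured on NaCl 125 mM than in the control. Of 17 tested, 10 rose, none fell and 7 were not called, with a median of 1.57 against -0.03 over all genes tested. With genes below background in 1 group taken at their bound, and those with no bound at 0, that median was 0.49, and only 4 of the 17 were measured in both groups. Beside EM1 and OLEO2, PER1, a peroxiredoxin of dry seed, rose by at least 6.792-fold, OLEO1 by at least 3.485-fold and the seed storage protein gene CRA1 by at least 2.51-fold. EM6, above background on 2 control arrays, rose by 3.45 on the log2 scale. The summed signal of the 17 genes was 3407 to 3504 in the control and 11710 to 12400 on NaCl 125 mM, 4254 to 4281 on NaCl 100 mM, 5832 to 6339 on sorbitol 200 mM and 3293 to 3314 on sorbitol 250 mM. On sorbitol 200 mM 15 of the 17 were above background on all 3 arrays, and the fitted median against the control there was 3.47. Between NaCl 125 mM and sorbitol 250 mM, 5 of the 17 were called higher on NaCl and 4 lower, with a median of 0.22. In the control 2 of the 17 were above background on all 3 arrays and 13 on none, and on NaCl 125 mM 11 were and 3 were on none. The control sum thus comes mostly from the few genes detected there, and the sums do not follow the number of genes detected. On sorbitol 250 mM 10 of the 17 were above background on all 3 arrays, with a sum no higher than in the control. FUS3, a master regulator of embryo maturation, was above background on all 3 NaCl 125 mM arrays and no control array, LEC1, another, on 1 and none, and neither was called. The pollen marker VGD1 was below background on all 6 arrays. The part of this seed signal in the other abscisic acid targets below was not tested. The list's median ran from 0.22 to 2.15 under other processing.

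**Figure D3:**
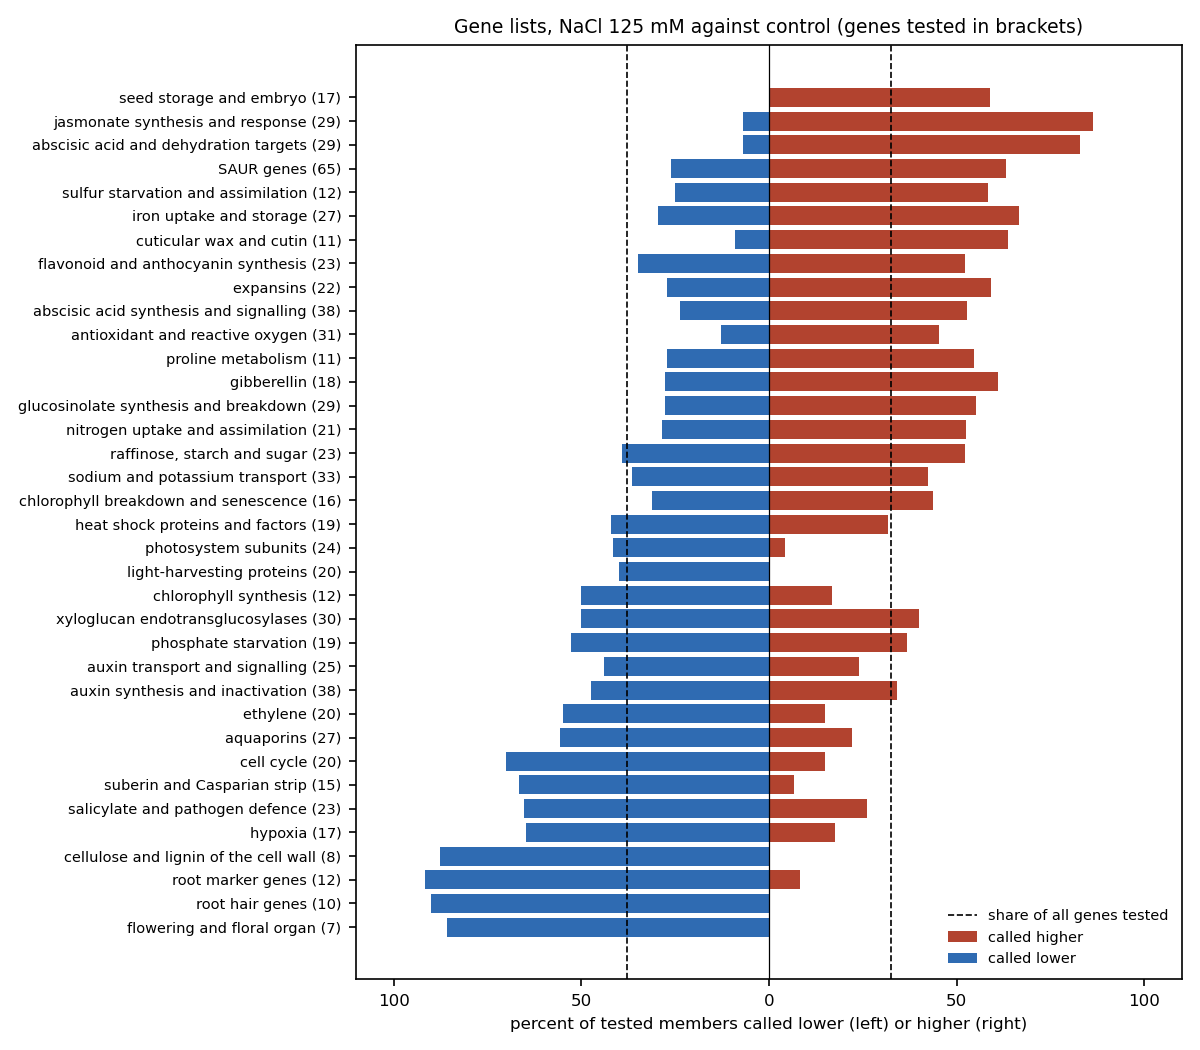
For each gene list with at least 7 genes tested, save that of ribosomal proteins, the percentage of tested members called higher (red, to the right) or lower (blue, to the left) on NaCl 125 mM, with lists ordered by their median log2 difference and the number of genes tested in brackets. Dashed lines mark the share of all genes tested that was called higher (32.4%) or lower (37.9%). Seed, jasmonate and abscisic acid target genes lie at the top, root hair and flowering genes at the bottom.

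Genes of sodium and potassium transport moved in both directions and mostly by little. Of 33 tested, 14 rose (32.4% of all genes did) and 12 fell (37.9%), with a median of 0.11. The exception in size was HAK5, a high-affinity potassium uptake transporter of the root known to be induced when potassium is short. It measured 6.75, 6.63 and 6.71 in the control and 11.50, 11.47 and 11.53 on NaCl 125 mM, a rise of 4.81 (SE 0.05, limma adjusted p = 2.001e-25). Among transporters that move sodium, the plasma membrane exchanger SOS1 rose by 0.40 and the vacuolar exchanger NHX2 by 0.33. HKT1, which withdraws sodium from the xylem, fell from 9.49, 9.47 and 9.38 to 8.04, 8.12 and 8.03 (difference -1.39, SE 0.06). SKOR, the channel that loads potassium into the xylem, fell by 1.40, from 10.58, 10.45 and 10.58 to 9.18, 9.14 and 9.09. The nitrate transporter NRT1.8 rose by 1.57, the vacuolar calcium exchangers CAX1 and CAX3 by 1.27 and 1.12, and the kinase gene SOS2 and its calcium sensor SOS3 fell by 0.35 and 0.33. Of the 6 NHX exchangers tested, 3 rose, 2 fell and NHX1, at -0.03, was not called.

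Aquaporins, the water channels of the plasma membrane and vacuole, were called lower in 15 of 27 and higher in 6. Their median was -0.29, and 37.9% of all genes were called lower and 32.4% higher. The fall was deepest in channels known mainly from roots. TIP2.3, a vacuolar channel, measured 12.17, 12.11 and 12.10 in the control and 8.92, 8.88 and 8.99 on NaCl 125 mM (difference -3.20, SE 0.04), and PIP2;4 of the plasma membrane 13.20, 13.21 and 13.18 against 11.14, 11.16 and 11.28. Of the 13 plasma membrane channels, 8 fell and 3 rose. The highest rises were in TIP3;1, a channel of seed storage vacuoles, at 1.85, and NIP2;1 at 1.8.

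Targets of abscisic acid and dehydration mostly rose, while the components upstream of them moved in both directions. Of 29 targets, 24 rose and 2 fell, with a median of 1.48. TSPO, a membrane protein that abscisic acid induces, measured 5.28, 5.17 and 5.48 in the control and 10.42, 10.41 and 10.34 on NaCl 125 mM (difference 5.08, SE 0.06, limma adjusted p = 1.554e-24). LEA4-5 rose by at least 5.449-fold from a control below background, the lipid transfer protein genes LTP4 and LTP3, which lie side by side, by 4.28 and 4.03 on the log2 scale, and the oil body protein gene RD20 by 3.42. The 2 that fell were transcription factors, DREB2A from 12.27, 12.27 and 12.26 to 11.67, 11.65 and 11.64, and RD26 from 13.63, 13.57 and 13.67 to 13.17, 13.22 and 13.13. Of 38 genes of abscisic acid synthesis and signalling, 20 rose and 9 fell, with a median of 0.29. Among them, 6 of 9 PYR/PYL receptors of the hormone fell and 1 rose, with PYL6 lowest at -2.37. Of 9 clade A phosphatases, which oppose the signal and are also its targets, 8 rose and none fell. HAI2 among them measured 2.26, 4.33 and 3.91 against 7.51, 7.29 and 7.68, a rise of at least 5.964-fold. Of the 4 enzymes that break abscisic acid down, 3 rose, CYP707A2 by 3.61, CYP707A1 by 2.89 and CYP707A3 by 0.76. The synthesis gene NCED3 differed by 1.66 and was not called, NCED2 rose by at least 1.533-fold from a control below background, and NCED9 fell by 1.15.

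Proline and the raffinose family of sugars are solutes that build up in stressed leaves, and the genes that start proline synthesis and breakdown moved in opposite directions. P5CS1, the rate-limiting enzyme of proline synthesis, rose from 11.30, 11.37 and 11.28 to 13.31, 13.39 and 13.39 (difference 2.04, SE 0.04, limma adjusted p = 3.453e-20). ERD5, the proline dehydrogenase that starts its breakdown, fell from 15.60, 15.68 and 15.62 to 13.19, 13.19 and 13.06 (difference -2.48, SE 0.04). The arginase gene ARGAH2 rose by 2.12. Over the whole list of 11 proline genes, 6 rose and 3 fell, with a median of 0.26. Of 4 galactinol synthases, which make the donor for raffinose, 3 rose, led by GOLS4 from 7.50, 7.22 and 7.40 to 11.16, 11.18 and 11.19. MIOX4, an inositol oxygenase that uses a precursor of the same pathway, fell by at least 10.37-fold, from 7.24, 7.05 and 7.25 to 2.22, 2.44 and 2.80. The sugar list as a whole had 12 of 23 genes higher and 9 lower. Its share called lower is near that of all genes (37.9%), of which 32.4% were called higher.

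Jasmonate genes had the highest share of called rises among the lists. Of 29 tested, 25 rose and 2 fell, with a median of 1.49. All 9 enzymes of jasmonate synthesis tested rose, by 0.54 in AOC4 to 2.59 in the lipoxygenase gene LOX2, and all 8 JAZ repressors, which jasmonate both degrades and induces, rose by 0.69 in JAZ2 to 3.52 in JAZ5. These subgroups were drawn after their values had been seen. TAT3, a tyrosine aminotransferase gene, went from 7.32, 7.26 and 7.32 to 11.08, 11.23 and 11.27 (difference 3.89, SE 0.06, limma adjusted p = 7.642e-22). The vegetative storage protein genes VSP1 and VSP2 rose by 3.4 and 2.98. The genes that fell were the receptor COI1, by 0.19, and PDF1.2, which also needs ethylene for its expression. In the list of salicylate and pathogen defence, which shares PDF1.2, 15 of 23 fell and 6 rose, with a median of -0.40. PR5 fell by 1.92 and WRKY70 by 1.45, BGL2, a glucanase also known as PR2, rose from 8.39, 8.41 and 8.34 to 10.41, 10.41 and 10.24, and PR1, above background on 1 of the 6 arrays, was not called.

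The flavonoid pathway split between its last and its first steps. Of 23 genes tested, 12 rose and 8 fell, and the 12 included all 6 of the anthocyanin branch and all 4 activators of that branch. DFR, the first enzyme of the branch, measured 9.37, 9.31 and 9.36 in the control and 15.10, 15.13 and 15.16 on NaCl 125 mM, a rise of 5.78 (SE 0.04, limma adjusted p = 1.071e-27). LDOX, the next enzyme, rose by 5.14, the glycosyltransferase gene UF3GT from 8.30, 8.30 and 8.27 to 13.85, 13.79 and 13.77, and TT19, needed to bring the pigment to the vacuole, by 4.66. The activators TT8 and MYB75 rose by 3.76 and 3.43, and MYB113 and MYB90, below background on every control array, by at least 6.812-fold and 1.542-fold. MYB113 and MYB114 are neighbours of similar sequence, so that a probe may read both. MYBL2, a repressor of the branch, fell by 0.88. Of the 9 enzymes from phenylalanine to the flavonols, 6 fell and only TT7 rose, by 0.89, with PAL1 at -0.46 and F3H at -0.72. MYB12, which activates those early steps, fell from 12.23, 12.19 and 12.19 to 11.14, 11.10 and 11.16. The grouping into branches was made after the values had been seen.

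Iron genes moved in both directions, with more of them higher than lower. Of 27 iron genes, 18 rose (32.4% of all genes did) and 8 fell (37.9%), with a median of 0.67. IRT1, the main iron importer of the root, measured 8.22, 8.36 and 8.30 in the control and 11.50, 11.59 and 11.81 on NaCl 125 mM (difference 3.34, SE 0.08, limma adjusted p = 1.998e-19). The oxidase gene CYP82C4, a marker of iron shortage, rose by at least 3.055-fold from a control below background. The 4 bHLH factors of subgroup Ib, which activate uptake genes, all rose, BHLH100 by 3.01, BHLH101 by 1.42, BHLH38 by 1.38 and BHLH39 by 1.18. All 4 ferritins, which store iron, fell, by 0.19 in FER3 to 0.89 in FER2. Nicotianamine synthases, whose product carries iron through the plant, did not move as one: NAS2, NAS4 and NAS1 rose by 2.72, 1.86 and 1.65, and NAS3 fell from 10.79, 10.84 and 10.87 to 7.65, 7.67 and 7.63 (difference -3.19, SE 0.05). IRT2, the neighbour of lower affinity, fell by 1.58. In the list of sulfur starvation and assimilation 7 of 12 rose and 3 fell (median 0.73), with LSU1 from 9.93, 9.79 and 9.78 to 12.02, 11.96 and 12.07 and the repressor gene SDI1 from 9.69, 9.77 and 9.68 to 11.86, 11.84 and 11.80, while the root transporter gene SULTR1;1 fell by 1.59.

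Marker genes of root cell types fell, with 1 exception. Of the 12 root markers, 11 fell and PYK10, a beta-glucosidase of the endoplasmic reticulum, was called higher by 0.23, with a median of -1.25. CASP5 measured 8.86, 8.81 and 8.74 in the control and 5.30, 5.32 and 5.31 on NaCl 125 mM (difference -3.49, SE 0.07, limma adjusted p = 7.627e-20), and all 5 CASP genes, which place the Casparian strip of the endodermis, fell, by 0.75 to 3.49. Of 10 root hair genes, 9 fell and LRX1, at -0.88, was not called. This list shares genes with the root markers, EXPA7 and EXPA18 among them, so the counts are not separate. PRP3, a cell wall protein of root hairs, went from 11.31, 11.38 and 11.36 to 9.27, 9.27 and 9.27, and the transcription factor gene RSL4 and the expansin gene EXPA7 fell by 1.39 and 1.46. In the suberin list, which shares the CASP genes, 10 of 15 fell and 1 rose, beside 37.9% and 32.4% of all genes. The call of PYK10 was lost and its sign turned, to -0.29 (limma adjusted p = 0.0355), when arrays were scaled by their 75th percentile. The summed signal of the 12 root markers was 175500 to 179500 in the control and 169100 to 182000 on NaCl 125 mM, and PYK10 makes up most of it. How much the share of root in the seedling has to do with these falls was not tested.

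**Figure D4:**
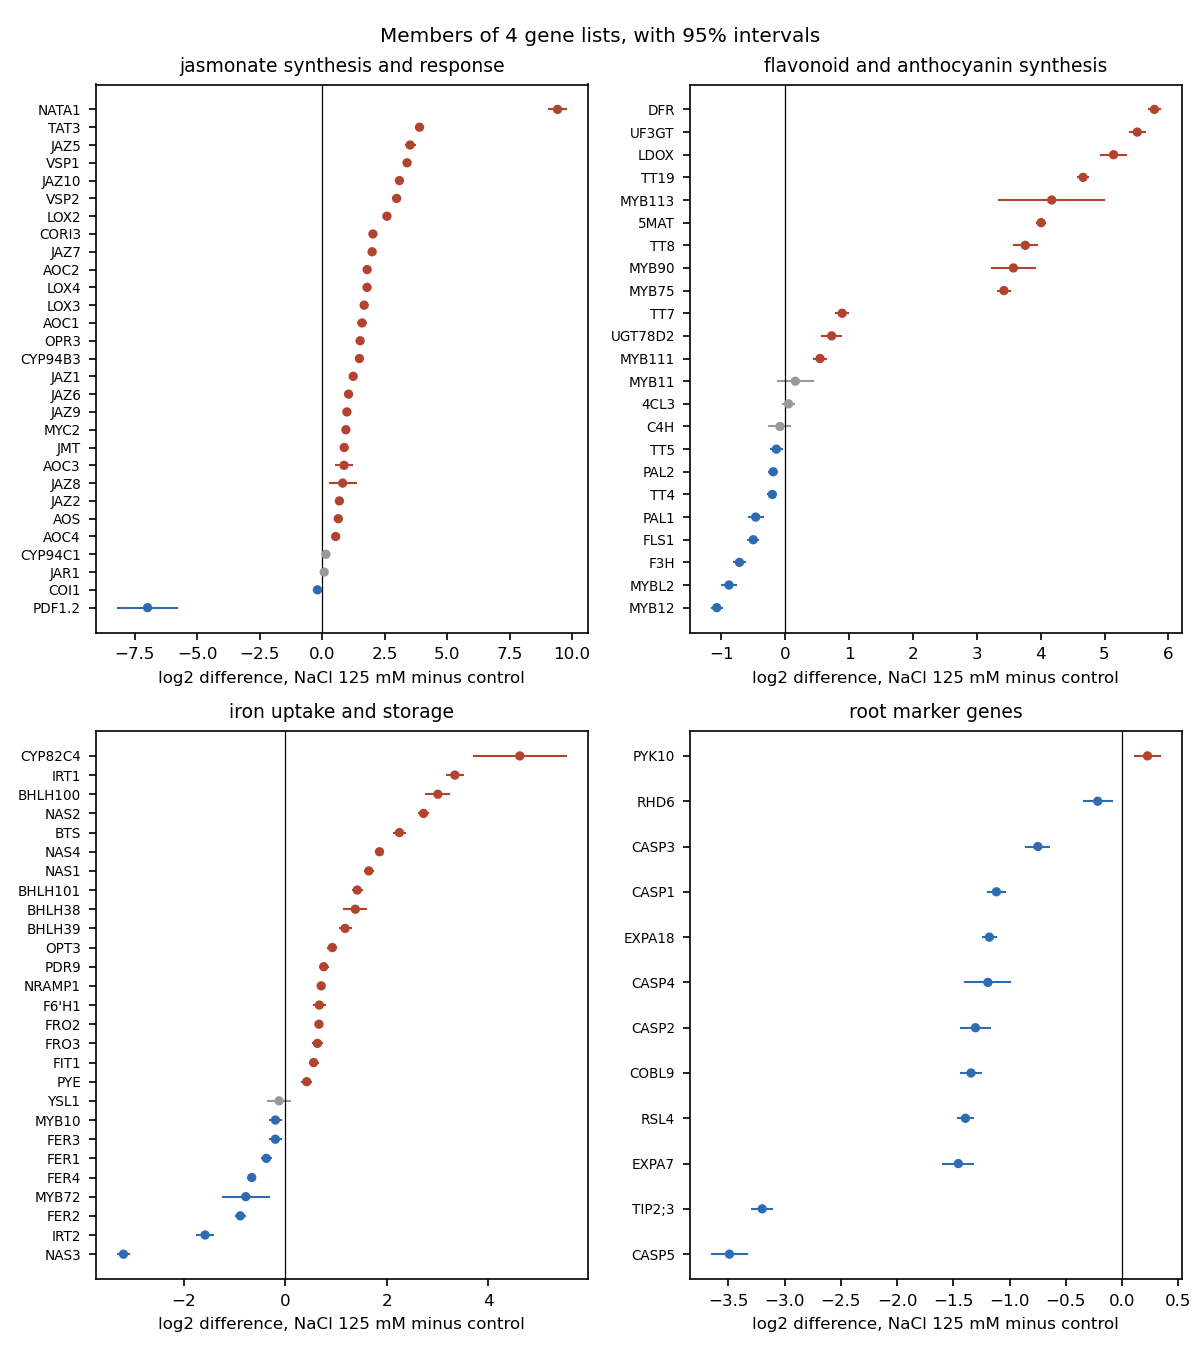
Log2 difference between NaCl 125 mM and control for each tested member of 4 gene lists, with horizontal bars for the 95% interval. Red points were called higher, blue lower and grey not called, and members below background in 1 group are drawn at their fitted difference. Anthocyanin genes from DFR to MYB75 lie between 3.43 and 5.78, and 11 of the 12 root markers lie below 0.

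Auxin genes were called in both directions, with a few large members, and over all genes 32.4% were called higher and 37.9% lower. Of 38 genes of synthesis and inactivation, 13 rose and 18 fell, with a median of -0.23. NIT2, a nitrilase that can form indoleacetic acid from its nitrile, rose from 10.37, 10.41 and 10.28 to 13.38, 13.33 and 13.35 (difference 3.00, SE 0.04, limma adjusted p = 1.222e-22). NIT1 rose by 1.28 and NIT3 by 0.36, and NIT4, a nitrilase of cyanide breakdown, fell by 0.41. NIT1 and NIT2 and NIT1 and NIT3 are neighbours with similar sequence, so that their probes may share signal. Among the 9 YUCCA monooxygenases, which complete the main route to auxin, 6 fell and 2 rose, YUC4 from 5.21, 5.29 and 5.40 to 6.65, 6.73 and 6.79 and YUC1 by 0.73. GH3.2, an enzyme that conjugates auxin to amino acids, fell from 9.43, 9.31 and 9.39 to 6.40, 6.22 and 6.26. Of the 25 genes of auxin transport and signalling, 6 rose and 11 fell, with the auxin efflux carrier PIN2 of the root at -1.35 and the repressor gene IAA14 at 2.17. IAA14 measured 9.01, 9.02 and 9.03 in the control and 11.21, 11.19 and 11.17 on NaCl 125 mM. Arrays of the same group differed for it by slide, at 10.54 on 1 slide and 8.97 and 8.89 on another within sorbitol 150 mM. Against sorbitol 100 mM on shared slides it was higher by 0.84 (SE 0.05, limma adjusted p = 0.0001382).

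SAUR genes are short auxin-induced genes linked to cell expansion. Of 65 tested, 41 rose and 17 fell, with a median of 0.76 against -0.03 over all genes. AT1G79130 fell from 7.33, 7.23 and 7.33 to 4.80, 5.12 and 4.89, AT2G24400 from 9.28, 9.29 and 9.38 to 7.24, 7.32 and 7.31, and SAUR27 rose from a control below background (2.91, 1.86 and 2.06) to 4.90, 5.37 and 5.33, at least 1.217-fold. Many SAUR genes lie in tandem and are alike in sequence. With normexp background correction the median was 0.35. Expansins, which loosen the cell wall, were called higher in 13 of 22, with EXPA10 from 10.40, 10.31 and 10.32 to 13.26, 13.23 and 13.32 and EXPA11 from 10.55, 10.53 and 10.52 to 12.93, 12.93 and 12.86. The 6 that fell included EXPA7 and EXPA18 of root hairs, and EXPA12 at -3.47.

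Genes of wall thickening and cell division mostly fell. Of 8 genes of cellulose and lignin, 7 fell and none rose, with a median of -0.65, and the 3 cellulose synthases of the secondary wall, CESA4, CESA7 and CESA8, fell by 1.32, 0.93 and 0.87. CESA4 measured 11.60, 11.61 and 11.57 in the control and 10.31, 10.25 and 10.25 on NaCl 125 mM. The laccase gene LAC4, of lignin formation, fell by 1.00. Of 20 cell cycle genes, 14 fell and 3 rose, with a median of -0.31. The mitotic cyclin CYCB1;2 fell from 12.38, 12.31 and 12.31 to 11.36, 11.29 and 11.27, and KN, the syntaxin of the division plate, by 0.67. The 3 that rose were CYCD3;3, by 0.76, CYCD3;2, by 0.31, and ANT, by 0.27, which promote division early in leaf growth. Xyloglucan endotransglucosylases, which cut and rejoin wall polymers, split into 12 higher and 15 lower of 30, beside 32.4% and 37.9% of all genes. Among them were XTR6 at 1.73, XTH15 at -2.84 and the root hair gene XTH26 from 10.43, 10.32 and 10.19 to 6.83, 7.02 and 6.87.

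Of 7 genes of flowering and the flower, 6 fell, none rose and AG, at -1.07, was not called. FT, the mobile signal that starts flowering, measured 9.63, 9.61 and 9.55 in the control and 5.21, 5.71 and 5.48 on NaCl 125 mM (difference -4.13, SE 0.13, limma adjusted p = 8.89e-17). The floral identity gene AP1 was above background on all 3 control arrays, at 6.68, 6.92 and 6.76, and on no NaCl 125 mM array, a fall of at least 7.897-fold. SEP3 fell by 2.92, LFY by 2.2 and SOC1, a target of FT, by 1.23. FLC, a repressor of FT, fell by 0.68. With normexp background correction the median of the list was -0.75 in place of -2.2.

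Ethylene genes fell in 11 of 20 and rose in 3, where 37.9% of all genes were called lower and 32.4% higher. ACO1, an oxidase of ethylene synthesis, fell from 12.54, 12.71 and 12.69 to 10.39, 10.49 and 10.57, and the receptor gene ETR2 by 1.02. The synthase gene ACS7 rose from 7.67, 7.81 and 7.96 to 9.52, 9.66 and 9.54. For gibberellin 11 of 18 rose and 5 fell. GA2OX7 and GA2OX6, which inactivate the hormone or its precursors, rose, the first by at least 2.915-fold from a control below background and the second by 1.35, GA2OX1, which also inactivates it, fell from 8.68, 8.71 and 8.76 to 6.83, 6.81 and 6.82, and the synthesis gene GA3OX2 fell from 10.92, 10.95 and 10.84 to 9.34, 9.40 and 9.44. Of the 5 DELLA repressors of gibberellin response, 4 rose, by 0.12 to 0.63. Cuticular wax genes rose in 7 of 11, with CER1, of alkane synthesis, from 13.11, 13.12 and 13.09 to 14.43, 14.45 and 14.52 and CER4, of primary alcohols, down by 1.13.

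What the photosynthesis genes show depended on the scaling of the arrays. With the common distribution used here, 8 of 20 light-harvesting genes fell and none rose (median -0.11), 10 of 24 photosystem subunits fell and 1 rose (median -0.11), and none of 4 Rubisco small subunit genes was called (median -0.02). Over all genes 37.9% were called lower with this scaling, near the shares of light-harvesting genes and photosystem subunits that fell. With each array scaled by its 75th percentile instead, 18 of the 20, 22 of the 24 and all 4 fell, with medians of -0.77, -0.71 and -0.72. The 391 genes with a mean log2 signal over 16 had a median difference of -0.03 with the first scaling and -0.45 with the second, and 41 of the 48 photosynthesis genes above are among those 391. The member with the deepest fall was LHCB2.3, from 15.09, 15.02 and 15.03 to 13.09, 13.15 and 13.20. Among chlorophyll synthesis genes, 2 of 12 rose and 6 fell: GUN4 was higher by 2.25 and PORA by 2.86, while GUN5 and CHLM fell by 0.64 and 0.59. PORA, a protochlorophyllide reductase of young seedlings, measured 7.59, 7.43 and 7.47 in the control and 10.42, 10.33 and 10.33 on NaCl 125 mM (SE 0.65, limma adjusted p = 0.0004685). Its arrays within a group differed by slide about as much, at 10.93 on a slide that also held an array of NaCl 125 mM and at 7.94 and 7.80 on another within sorbitol 150 mM, and at 10.67 against 7.60 and 7.71 within sorbitol 200 mM. Against sorbitol 100 mM on shared slides PORA differed by -0.32 and was not called (limma adjusted p = 0.01368). SEN1, a gene of dark-induced senescence, fell from 13.87, 13.85 and 13.82 to 9.37, 9.38 and 9.41, and the other 15 genes of chlorophyll breakdown and senescence lay between -1.3 and 1.03.

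Against NaCl 100 mM, the next dose, 10162 of 21509 genes (47.2%) were called, 4058 higher (18.9%) and 6104 lower (28.4%), and 561 of them by at least 2-fold. The NaCl 100 mM arrays shared no slide with the NaCl 125 mM arrays, so slide and dose cannot be told apart in this step either. The 4 genes with the largest fitted differences above the next dose included the seed genes EM1 and OLEO2. AT2G28490 was higher on 125 mM by at least 23.77-fold, OLEO2 by at least 15.27-fold (limma adjusted p = 4.94e-06) and AT1G65090 by at least 12.58-fold, since no NaCl 100 mM array was above background for these 3. EM1, above background on 2 of the NaCl 100 mM arrays, was higher on 125 mM by 5.72 (SE 0.12, limma adjusted p = 9.379e-18). EM1 was above background on none, 1, 2 and 3 arrays at 50, 75, 100 and 125 mM, and of the 17 seed genes 11 were higher on 125 mM than on 100 mM and none lower. NATA1 was lower on 125 mM than on 100 mM by 0.98 (limma adjusted p = 2.185e-05). HAK5 differed from the control by 3.68, 4.12, 4.68 and 4.81 at the 4 doses, and the step from 100 to 125 mM, 0.13, was not called (limma adjusted p = 0.02299).

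At the other end, 3 of the 4 genes lowest against NaCl 100 mM stood above the control at 50 and 75 mM and below it at 125 mM. PCC1, a circadian and pathogen-responsive gene, differed from the control by 1.98, 1.76, -0.57 and -3.85 at the 4 doses, and the step from 100 to 125 mM was -3.28 (limma adjusted p = 2.378e-16). PCR1, named for cadmium resistance, gave 1.58, 2.07 and -0.62 at the first 3 doses, and ANK, an ankyrin repeat gene, 1.90, 1.47 and -0.38. Neither was above background on any NaCl 125 mM array, where PCR1 lay at least 8.549-fold and ANK at least 7.737-fold below the control, and at least 5.557-fold and 5.96-fold below NaCl 100 mM. AT4G10540 was the remaining one of the lowest 4, at least 3.356-fold below NaCl 100 mM (limma adjusted p = 0.00933), with control values of 5.26, 4.38 and 2.11 that spread over both groups. CYP82C2 was below background on every array of the 4 NaCl doses, at least 33.13-fold below the control at 50 mM and 37.53-fold at 125 mM, so that steps between doses were not measured. Among lists, root markers were lower on 125 than on 100 mM in 8 of 12, cell cycle genes in 14 of 20 and wall genes in 7 of 8, flavonoid genes were higher in 13 of 23 and lower in 1, and iron genes were higher in 14 of 27 and lower in 4. SAUR genes were higher in 11 and lower in 21 of 65, near the shares of all genes (18.9% and 28.4%).

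Against sorbitol 250 mM, which has the osmotic strength of NaCl 125 mM, 14662 of 21508 genes (68.2%) were called, 5750 higher (26.7%) and 8912 lower (41.4%), and 2427 of them by at least 2-fold. THI2.1 had the largest fitted difference (limma adjusted p = 7.141e-23) and was below background on every control and sorbitol 250 mM array, so that NaCl 125 mM exceeded sorbitol 250 mM by at least 45.39-fold. CYP707A2 and AT1G29640, also below background on sorbitol 250 mM, were higher on NaCl 125 mM by at least 61.97-fold and 12.83-fold. The plastid aldo-keto reductase gene ChlAKR was higher by 5.61 on the log2 scale. NIT2 was higher on NaCl 125 mM by 1.98 and NIT1 by 1.35, IRT1 by 1.75 and DFR by 1.01, and of 65 SAUR genes 43 were higher and 7 lower. The sulfur list was higher in 8 of 12 and jasmonate genes in 17 of 29. Sorbitol 250 mM stood above NaCl 125 mM in RD29B, by 2.69, in TSPO, by 1.90, and in COR15A, by 0.78. Abscisic acid targets as a list were higher on NaCl in 7 and lower in 12 of 29, near the shares of all genes (26.7% and 41.4%).

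Other genes were far lower on NaCl 125 mM than on sorbitol 250 mM. AT4G01390 measured 6.75, 6.95 and 7.12 in the control and 2.60, 3.37 and 3.05 on NaCl 125 mM, and lay at least 170.4-fold below sorbitol 250 mM (limma adjusted p = 5.123e-21). PCR1 lay at least 99.2-fold below and AT3G12910 at least 30.93-fold. EXPA2, an expansin of germinating seed, lay at least 29.08-fold below. None of these 4 genes was above background on any NaCl 125 mM array, and EXPA2 was on no control array either, so no fold from the control is given for it. All 10 root hair genes and 11 of 12 root markers, lists that share genes, were lower on NaCl 125 mM than on sorbitol 250 mM. So were 16 of 20 cell cycle genes and 18 of 23 defence genes. HAK5 stood 4.81 above the control on NaCl 125 mM and 4.60 on sorbitol 250 mM, and was higher on NaCl by 0.21 (limma adjusted p = 0.0003531).

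**Figure D5:**
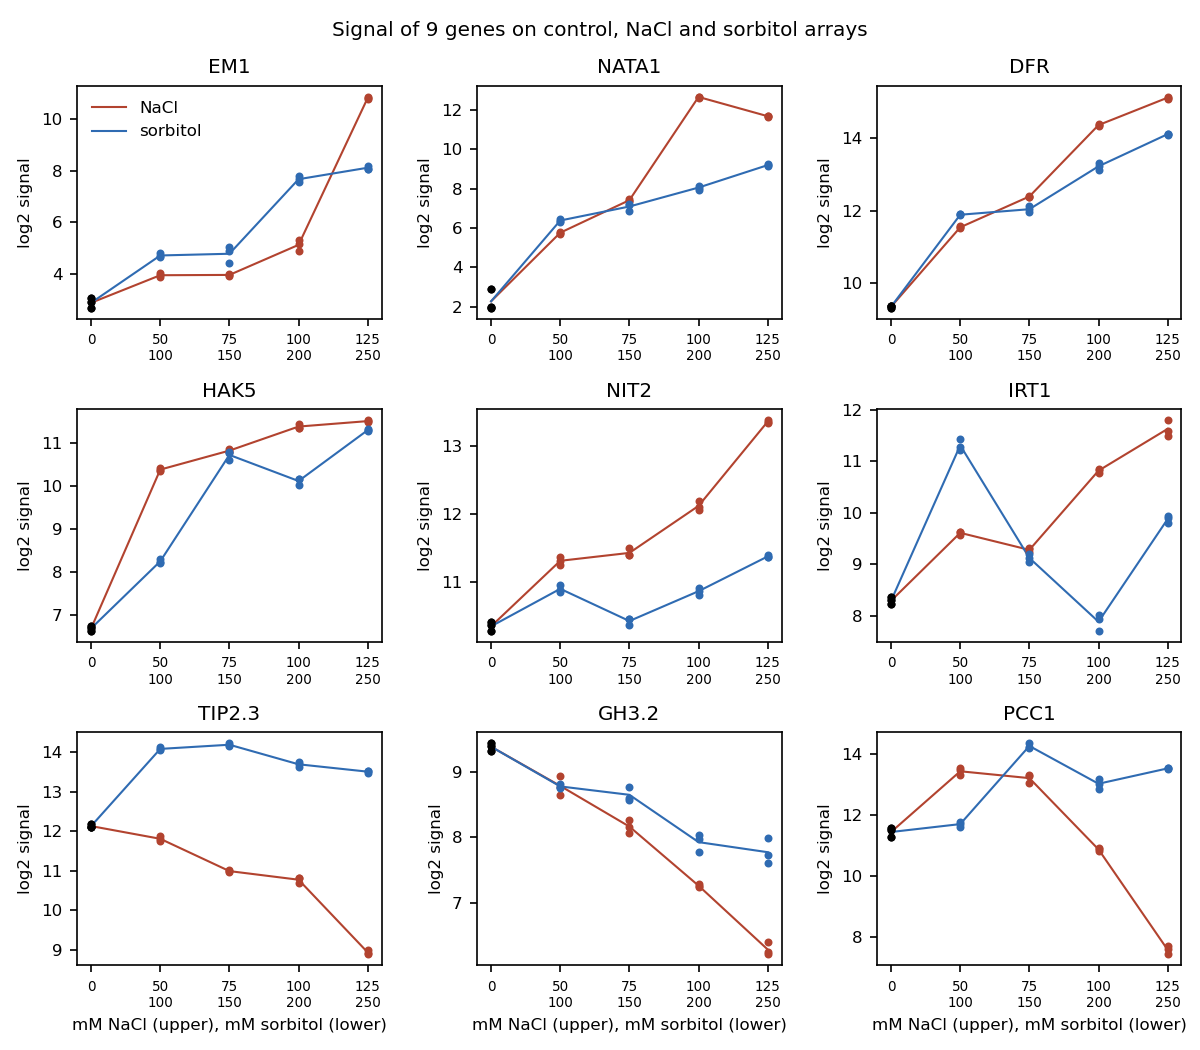
Log2 signal of 9 genes on every array of the series, with black points for the 3 control arrays, red for NaCl and blue for sorbitol, and lines through the group means. The x axis is the dose in mM, with NaCl doses above the sorbitol doses of equal osmotic strength. Among NaCl doses EM1 is highest at the last, HAK5 rises on both agents, and PCC1 lies above the control at the lower NaCl doses and below it at 125 mM.

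The arrays of sorbitol 100 mM shared their slides with those of NaCl 125 mM, so slide could enter the fit as a block there, though the osmotic strengths differ. Of 21509 genes, 13244 (61.6%) were called, 6051 higher (28.1%) and 7193 lower (33.4%). Of the 1599 genes that rose by at least 2-fold against the control, 1311 were called higher in this comparison too, 63 lower and 225 not called, and of the 1408 that fell by as much 1283 were called lower, 19 higher and 106 not called. The same NaCl 125 mM arrays enter both comparisons, so part of this overlap is built in and it is not an independent check. Within slides NaCl 125 mM exceeded sorbitol 100 mM by 5.31 in NATA1, 6.13 in EM1 (above background on 2 of the sorbitol arrays), 3.25 in HAK5, 3.24 in DFR and 2.45 in NIT2, and THI2.1, below background on sorbitol 100 mM, was higher by at least 49.78-fold. AT3G05950 and CYP71B22, below background on NaCl 125 mM, were lower by at least 55.3-fold and 16.05-fold, and TIP2.3 lay lower by 5.16, SEN1 by 4.67, CASP5 by 3.88 and FT by 2.34.

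Several genes with a large difference from the control were not called against sorbitol 100 mM on shared slides. Among the 24 largest rises and falls, AT4G01985 differed by -0.09 (limma adjusted p = 0.1175) and MEE3 by -0.06 (limma adjusted p = 0.6211), PDF1.2 differed by -2.43 (limma adjusted p = 0.07026) and was not called, and CYP82C2 was below background in both groups. OLEO2 and PDF1.2b were not called either. IRT1 differed by 0.32 and PORA by -0.32. Between the slides that held replicates of sorbitol 150 mM and of sorbitol 200 mM, 262 of 21492 genes differed by more than 1 on the log2 scale in the same direction within both groups. Of the genes named by rule PORA, IAA14, AT4G01985 and AT2G18590 are among them, and what part slide has in their differences from the control was not tested. Against sorbitol 100 mM jasmonate genes were higher in 23 of 29 and lower in 2, flavonoid genes higher in 17 of 23 and lower in 4, and root markers lower in 10 of 12. Abscisic acid targets were higher in 8 and lower in 11 of 29, near the shares of all genes (28.1% and 33.4%).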

How the data were processed

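RNA of whole 2-week-old Col-0 seedlings was measured on 27 single-colour Agilent arrays, 3 for each of 9 groups, and groups were taken from the array titles. For each array the authors deposited spot intensity values from Agilent Feature Extraction 10.7 (a processed signal, the median foreground and the median background) and other values, 0/1 flags for spots well above background, saturated or outlying. The authors also deposited a table of quantile-normalized intensity for the series, used as an alternative. Values were taken to log2 here from the deposited processed signal after quantile normalization over the 27 arrays, and 530 outlier spots (0.0448%) were masked. No spot was saturated.

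Genes were assigned to spots through the transcript accession (RefSeq, TAIR10.1), and 34285 of 43603 probes matched 1 gene. A gene takes its probe of highest mean log2 signal, and 6645 genes had several probes. The 3874 genes not well above background on all 3 arrays of any group were left out. limma 3.58.1 in R 4.3.3 (prior degrees of freedom 1.65) fitted 9 group means with no block, two-sided, with Benjamini-Hochberg adjustment over all genes tested and calls at an adjusted p under 0.01. The exact Mann-Whitney test cannot go below 0.1 with 3 against 3 arrays and was not used. The comparison with sorbitol 100 mM used the 6 arrays of both groups with slide as a fixed block. Where no array of a group was well above background, the change is a bound, from the mean of the bright group against the mean over the dim arrays of the higher of the lowest signal well above background and the gene's own. Quantile normalization sets every array to 1 distribution, so a shift shared by most genes, or by most of the brightest ones, is not seen. The number of arrays limits the precision. Python 3.11.15 with pandas 2.3.3, numpy 2.4.6 and matplotlib 3.10.9 did the rest.

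The genes, gene lists and comparisons were chosen with earlier results of these data known. Named by rule were the 12 largest rises and 12 largest falls among called genes whose arrays do not overlap, the 4 highest and 4 lowest against NaCl 100 mM and against sorbitol 250 mM, the 2 called members of each list that rose most and the 2 that fell most, and genes of the study's question. Other list members named, and the subgroups within lists, were chosen after their values were seen. List members with no matching name (9) were dropped. Alternatives were the 75th percentile scale, normexp (offset 50, on the median signal, the only foreground signal deposited beside the processed one), no filter, the deposited table, probes averaged, only the 6 arrays compared, replicate and slide blocks, each replicate left out and a threshold of 0.05. On simulated data of 21408 genes for the main comparison, limma recovered 95% of 200 changed genes and called 1 unchanged gene. A smaller share of the changed genes was recovered for the comparison with sorbitol 100 mM on shared slides. In the real data most genes tested were called, far more than 200. Slide and treatment cannot be told apart in the main comparison, so the simulation does not show how many real calls are false.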

Additional observations from a re-analysis of the deposited data

Results flagged for a closer look

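Among 168 named genes, 12 were called in opposite directions against the control on NaCl 125 mM and on sorbitol 250 mM. They also had a fitted difference between these groups of at least 3 on the log2 scale, with the difference itself called. Some of the named genes were chosen by the size of this same difference. The 12 are therefore listed as single genes, and the share of all genes was not counted. Below background on NaCl 125 mM and lower there than on sorbitol 250 mM were AT4G01390 (at least 170.4-fold), PCR1 (99.2), AT3G12910 (30.93) and ANK (27.89). Lower on the log2 scale were PCC1 (-5.93), the camalexin synthesis gene CYP71A13 (-5.78) and TIP2.3 (-4.58). Higher on that scale were the expansin gene EXPA11 (3.65), GUN4, a regulator of chlorophyll synthesis (3.96), and ChlAKR (5.61). AT1G29640 and CYP707A2, below background on sorbitol 250 mM, were higher by at least 12.83-fold and 61.97-fold. The control arrays are shared by both comparisons, and sorbitol 250 mM lay on a slide of its own.

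ASN1, an asparagine synthetase known to respond to sugar shortage, was called higher than the control on NaCl 100 mM (0.78) and lower on NaCl 125 mM (-0.82), a difference of -1.60 between the doses (limma adjusted p = 2.084e-13). It measured 12.38, 12.01 and 12.36 in the control and 11.44, 11.42 and 11.43 on NaCl 125 mM. The NaCl 100 mM and NaCl 125 mM arrays shared no slide.

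Probes that matched no single gene also carried signal. Of 9318 such probes, 4936 passed the same filter and 2674 (54.2%) were called in NaCl 125 mM against control, 1381 higher and 1293 lower, with 228 and 65 of them by at least 4-fold. They are not named here.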

How the results depend on the processing

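Under other processing, 105 counts of calls were within 1.5 times their main value and 3 were not, the counts at 2-fold or more under normexp background correction, 1554 in place of 3007 against the control, 192 in place of 561 against NaCl 100 mM and 1253 in place of 2427 against sorbitol 250 mM. Leaving out 1 replicate gave 14327 to 14484 calls against the control, 8720 to 9033 against NaCl 100 mM, 13864 to 14017 against sorbitol 250 mM and 10180 to 11993 against sorbitol 100 mM. Slide as a random block (consensus correlation 0.516) gave 13848 calls against the control. Of the values of named genes against the control, 2508 kept their call, 10 lost the call, 1 (EXPA2) gained it and 1 turned. The 2508 include changes of sign where neither fit was called, as for EXPA2, at 0.29 and as low as -0.42. PYK10 turned to -0.29 on the 75th percentile scale. The calls of ARGAH1 (7 settings), HSP17.4 (normexp, 0.14), ACS8 (6 arrays alone, limma adjusted p = 0.02992) and RPL18 (75th percentile scale) were lost, and AT4G10540 lost its call against NaCl 100 mM in 8 settings. The cause was not tested. The median differences of lists moved in 69 cases and stayed in 463, the photosynthesis lists on the 75th percentile scale among them.

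Same-numbered arrays did not deviate together in the control and NaCl 125 mM groups (correlations of 0.0386, 0.0397 and 0.0218), so the numbers were not taken as pairs. The replicate block gave 15386 calls against the control, 10696 against NaCl 100 mM, 14953 against sorbitol 250 mM and, in place of slide, 11316 against sorbitol 100 mM. The search for promoter motifs was not run, since promoter sequences were not used here. Calls of 53 genes rest on 6 arrays all below background, among them the list members AT4G09530, AT3G53250, SPX3 and SESA2.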

Other observations

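Nutrient and chemical defence lists were called in both directions (all genes 32.4% higher, 37.9% lower), with single members that moved far. In nitrogen uptake and assimilation 11 of 21 rose and 6 fell. The ammonium transporter gene AMT1;3 measured 11.87, 11.83 and 11.80 in the control and 13.02, 12.97 and 12.98 on NaCl 125 mM, and the glutamate dehydrogenase gene GDH2 11.98, 11.93 and 11.88 against 13.10, 13.04 and 13.11. NRT2.4, a nitrate transporter induced by nitrogen starvation, fell from 9.46, 9.58 and 9.59 to 7.23, 7.39 and 7.39. On the 75th percentile scale 7 rose and 9 fell, so no direction holds for that list. In phosphate starvation 7 of 19 rose and 10 fell. The ribonuclease gene RNS1 rose from 7.97, 7.93 and 7.96 to 10.70, 10.69 and 10.79, and PHT1;5, a phosphate transporter, by 1.98, while the lipid synthase gene MGD2 and the phosphate sensor gene SPX1 fell by 0.97 and 0.95. Glucosinolate genes rose in 16 of 29 and fell in 8 (12 and 10 on the 75th percentile scale). GSTU20 rose from 14.51, 14.51 and 14.58 to 16.53, 16.65 and 16.71, and of the regulators of aliphatic glucosinolates MYB76 and MYB29 rose by 1.68 and 1.09 and MYB28 fell by 0.34.

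Heat shock genes were called in both directions, near the shares of all genes (32.4% higher, 37.9% lower). Of 19 tested, 6 rose and 8 fell, and 5 of the 8 small heat shock proteins rose, led by HSP17.6II (control 3.41, 1.87 and 1.87, below background, NaCl 125 mM 5.33, 5.38 and 5.36, at least 1.356-fold). HSP101, the chaperone of heat tolerance, fell by 0.93 and its regulator HSFA2 from 8.65, 8.97 and 9.12 to 8.20, 8.26 and 8.29. Antioxidant genes rose in 14 of 31 and fell in 4, and on the 75th percentile scale in 11 and 10. GSTF6 rose from 13.89, 13.93 and 13.88 to 15.89, 15.92 and 15.86, and TAPX, the ascorbate peroxidase of the thylakoid, fell from 14.36, 14.28 and 14.33 to 12.94, 12.86 and 12.88. Among hypoxia genes 11 of 17 fell and 3 rose, with the sucrose synthase gene SUS4 down by 1.89 and the haemoglobin gene HB1 up by 0.70. Ribosomal protein genes chosen by name, which include chloroplast proteins such as RPL12-C and RPL15, rose in 9 and fell in 7 of 35, and on the 75th percentile scale in 4 and 18.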
